A study of Homo sapiens with 6 samples.

Results

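A set of 10 gene records for transcripts of RNA polymerases I and III was followed across 6 RNA sequencing libraries of the human pancreatic cancer cell lines CFPAC and KP3. They were found by name in a table of 33097 gene records, and all 10 reached 1 FPKM (read fragments scaled to transcript length and library size) in some library, the condition that 14582 genes met and that defines the genes tested here. RN7SL1, RN7SL2 and RN7SL3 are RNAs of the signal recognition particle (SRP), and RN7SK is 7SK RNA. RMRP is the RNA of ribonuclease MRP, RPPH1 that of ribonuclease P, and RNA5-8SN3, RNA5-8SN2, RNA5-8SN1 and 5_8S_rRNA are 4 records of 5.8S ribosomal RNA (rRNA). The records were chosen by their measured levels, which were higher with NEK6 siRNA than with control siRNA in these same libraries, so that contrast is given as a description with no test.

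Each line was sequenced after siRNA against NEK6, after siRNA against NEK7 and after a control siRNA. NEK6 and NEK7 are closely related protein kinases that act in mitosis, and the series title places NEK7 in pyroptosis and inflammasome activity in pancreatic cancer. Each combination of line and siRNA has 1 library, so no difference between siRNAs within a line has a replicate check. The libraries labelled as control siRNA in their titles are tagged WT in the treatment field, and the labels give no siRNA sequence, dose, transfection time or culture of origin. Transcripts of NEK6 kept 26.9% of the control level in CFPAC and 33.0% in KP3 with NEK6 siRNA, and those of NEK7 kept 15.7% and 38.9% with NEK7 siRNA.

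SRP RNA is the scaffold of the particle that guides ribosomes making secreted and membrane proteins to the endoplasmic reticulum. 7SK RNA holds the transcription elongation factor P-TEFb in an inactive complex with HEXIM proteins. Ribonuclease MRP cleaves the precursor of ribosomal RNA, and ribonuclease P trims the leader from precursor transfer RNAs. These RNAs are made by RNA polymerase III, while 5.8S rRNA is cut out of the long precursor that RNA polymerase I makes and pairs with 28S rRNA in the large ribosomal subunit. In the mature form none of them carries the long poly(A) tail of a messenger RNA.

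All 10 records occupy the same intervals as in GENCODE v29 (GRCh38), from which sequences were read. RN7SL1 lies at chr14:49586580-49586878 on the plus strand, and RN7SL3 (chr14:49853616-49853914) and RN7SL2 (chr14:49862550-49862849) lie on the minus strand of the same chromosome. RN7SK is at chr6:52995621-52995948 (plus), RMRP at chr9:35657754-35658017 (minus) and RPPH1 at chr14:20343075-20343407 (minus). The 5.8S records are on the plus strand of chromosome 21, RNA5-8SN2 at chr21:8212572-8212724, 5_8S_rRNA at chr21:8256781-8256933, RNA5-8SN3 at chr21:8395607-8395759 and RNA5-8SN1 at chr21:8439823-8439975. In the RefSeq annotation 5_8S_rRNA lies in RNA5-8SP10 and in no named rRNA precursor unit, unlike RNA5-8SN1, RNA5-8SN2 and RNA5-8SN3. RN7SL4P, a 7SL pseudogene that was not among the 10 records but was likewise at least 2-fold higher with NEK6 siRNA in both lines, lies at chr3:15738515-15738809 (plus).

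The SRP copies differ at so few bases that a read can fit more than 1 of them. RN7SL1 and RN7SL2 were 98.3% identical over their alignment, with 4 substitutions, 1 gap and a shared run of 205 bases. RN7SL3 differed from RN7SL1 at 7 bases (97.7% identical) and shared a run of 123 bases with it. RN7SL4P was 86.9% identical to RN7SL2 and shared a run of 192 bases with it, with most differences gathered near its 3′ end.

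The 4 records of 5.8S rRNA hold the same 153 bases, so 1 sequence stands for all of them and no read inside it can be assigned to 1 record. RMRP is printed as the single-copy member whose control values were lowest. Both are written 5′ to 3′.
RNA5-8SN1: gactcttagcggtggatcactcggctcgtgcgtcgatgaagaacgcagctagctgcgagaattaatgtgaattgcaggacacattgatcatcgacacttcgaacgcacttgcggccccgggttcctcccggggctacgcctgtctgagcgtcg
RMRP: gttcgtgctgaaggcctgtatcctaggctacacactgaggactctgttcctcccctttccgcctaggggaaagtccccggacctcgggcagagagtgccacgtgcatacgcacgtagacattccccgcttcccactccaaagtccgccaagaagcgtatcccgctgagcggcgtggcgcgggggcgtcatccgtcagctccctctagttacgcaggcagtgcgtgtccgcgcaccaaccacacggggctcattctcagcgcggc
The longest run of A in any of the 10 sequences was 4 bases. Their GC content was 57.5% in the 5.8S records and 58.2% to 64.6% in the others.

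Library totals were 59478910 to 66067379 counts. Libraries were made from 5 µg of total RNA with oligo(dT) beads, per the labels' protocols, a step that keeps RNA with runs of A. The 10 records together took 0.0121% of the counts in CFPAC NEK6 siRNA cells, 0.00281% in NEK7 siRNA cells and 0.00156% in control cells. In KP3 these shares were 0.0220% with NEK6 siRNA, 0.00410% with NEK7 siRNA and 0.00222% with control siRNA. A change in cellular level cannot be told apart here from a change in how much RNA without a poly(A) tail passed the oligo(dT) step, since all 6 libraries were made with that step. In bulk RNA, fewer cells with an RNA and less of it per cell cannot be told apart either. All 5 epithelial markers were present in every library, with a summed level of 603, 519 and 623 FPKM in CFPAC NEK6, NEK7 and control siRNA cells and 1348, 1221 and 1238 FPKM in the same order in KP3. Of 6 markers of other cells, PTPRC, CD3E, CDH5 and PECAM1 stayed at or below 0.197 FPKM and were each at 0 in at least 1 library, and COL1A1 (1.97 to 3.19 FPKM) and COL1A2 (0.856 to 1.40 FPKM) made up most of the sum. That sum was 4.78, 4.34 and 2.95 FPKM in CFPAC NEK6, NEK7 and control siRNA cells and 3.73, 3.39 and 3.24 FPKM in those of KP3, and its part in the results was not tested.

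**Figure D1:**
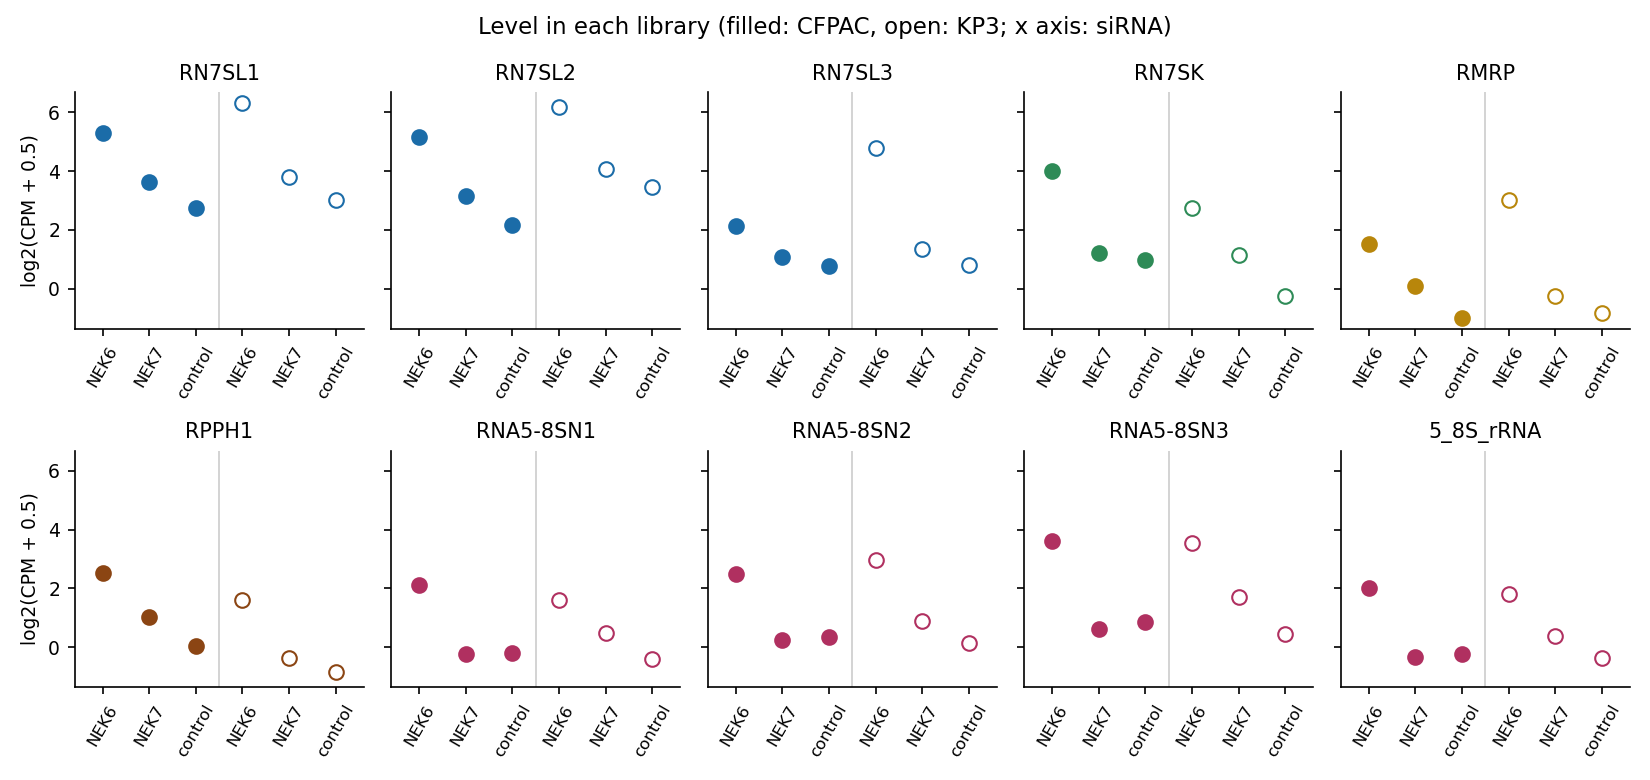
Level of each of the 10 records in each library as log2(CPM + 0.5), where CPM is the count scaled to library size with TMM factors. Each point is 1 library, CFPAC filled and KP3 open, and in each line the NEK6 siRNA point is the highest of the 3.

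RN7SL1 and RN7SL2 had the most counts of the 10 in every library. RN7SL1 had 2406 counts with NEK6 siRNA, 761 with NEK7 siRNA and 354 with control siRNA in CFPAC, and 4837, 922 and 495 counts in the same order in KP3. RN7SL2 had 2202, 539 and 229 counts in CFPAC and 4349, 1094 and 692 counts in KP3 with NEK6, NEK7 and control siRNA. RN7SL3 had 242, 102 and 69 counts in CFPAC and 1640, 140 and 81 counts in KP3 in that order. In both lines each SRP record was highest with NEK6 siRNA and lowest with control siRNA. Scaled to library size by TMM, RN7SL1 was 6.26-fold higher with NEK6 siRNA than with control siRNA in CFPAC and 10.5-fold higher in KP3. RN7SL2 was 8.86-fold higher in CFPAC and 6.74-fold higher in KP3. RN7SL3 was 3.23-fold higher in CFPAC and 21.7-fold higher in KP3, the widest gap between the lines among the SRP records.

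Since near-identical copies share reads, SRP RNA is also given as a sum. It came to 4850 counts with NEK6 siRNA, 1402 with NEK7 siRNA and 652 with control siRNA in CFPAC, and to 10826, 2156 and 1268 counts in the same order in KP3. The sum was 6.86-fold (95% interval from counting error alone 6.32 to 7.44) higher with NEK6 siRNA than with control siRNA in CFPAC and 9.15-fold (8.64 to 9.70) higher in KP3. The split among the copies was uneven across libraries. RN7SL3 took 15.1% of the SRP counts in KP3 NEK6 siRNA cells (exact 95% binomial interval 14.5 to 15.8), against 6.39% (5.11 to 7.88) in KP3 control cells. In CFPAC it took 4.99% (4.39 to 5.64) with NEK6 siRNA, against 10.6% (8.33 to 13.2) with control siRNA. The share of RN7SL3 was thus higher with NEK6 siRNA in KP3 and lower with NEK6 siRNA in CFPAC, and whether the copies themselves or the placing of shared reads differed was not tested.

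RN7SK was below RN7SL1 in every library, at 38.4 against 107 FPKM in CFPAC NEK6 siRNA cells. RN7SK had 953 counts with NEK6 siRNA, 116 with NEK7 siRNA and 83 with control siRNA in CFPAC. In KP3 it had 380 counts with NEK6 siRNA, 116 with NEK7 siRNA and 23 with control siRNA. The NEK6 siRNA library was far above the other 2 in each line, at 10.6-fold (8.46 to 13.2) the control level in CFPAC and 17.7-fold (11.6 to 27.0) in KP3.

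The RNAs of the ribonucleases MRP and P had few counts in the control libraries. RMRP had 147 counts with NEK6 siRNA, 36 with NEK7 siRNA and 0 with control siRNA in CFPAC, and 467, 23 and 4 counts in that order in KP3. Against a floor of 3 counts in the control library, RMRP was at least 45.2-fold higher with NEK6 siRNA in CFPAC. Its level in KP3 was 125-fold that of the control library, which held 4 counts. RPPH1 had 329 counts with NEK6 siRNA, 98 with NEK7 siRNA and 31 with control siRNA in CFPAC and 157, 19 and 4 counts in that order in KP3. Both RNAs had their highest value with NEK6 siRNA and their lowest with control siRNA in each line. Summed, they were 14.2-fold (9.84 to 20.4) higher with NEK6 siRNA than with control siRNA in CFPAC and 83.6-fold (41.6 to 168) higher in KP3, with 8 counts in the control library of KP3.

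The records of 5.8S rRNA, an RNA that RNA polymerase I makes, were also higher with NEK6 siRNA in both lines. RNA5-8SN3 had 725 counts with NEK6 siRNA, 66 with NEK7 siRNA and 74 with control siRNA in CFPAC, and 686, 186 and 57 counts in the same order in KP3. RNA5-8SN2 had 321, 44 and 44 counts in CFPAC and 442, 92 and 39 counts in KP3 in that order. RNA5-8SN1 had 239, 22 and 21 counts in CFPAC and 155, 62 and 17 counts in KP3, and 5_8S_rRNA had 219, 19 and 20 counts in CFPAC and 183, 54 and 18 counts in KP3, again with NEK6, NEK7 and control siRNA. All 4 records were highest with NEK6 siRNA in each line, and the NEK7 siRNA values lay close to control in CFPAC and above control in KP3. Their sum was 1504 counts with NEK6 siRNA and 159 with control siRNA in CFPAC, an 8.72-fold (7.40 to 10.3) difference. In KP3 it was 1466 counts with NEK6 siRNA and 131 with control siRNA, a 12-fold (10.03 to 14.3) difference. RNA5-8SN3 held 43.5% to 48.2% of the 5.8S counts in every library.

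Compared per length in FPKM, RN7SL1 or RN7SL2 had the highest level of the 10 in all 6 libraries. RN7SL1 was at 107 FPKM with NEK6 siRNA and 17.0 FPKM with control siRNA in CFPAC and at 225 and 21.6 FPKM in KP3. RNA5-8SN3 was at 62.7 FPKM with NEK6 siRNA and 6.94 FPKM with control siRNA in CFPAC and at 62.4 and 4.79 FPKM in KP3. RMRP was at 7.36 FPKM with NEK6 siRNA and listed at 0 with control siRNA in CFPAC and at 24.6 and 0.187 FPKM in KP3. With 1 library a condition, the spread between neighbours in this order is not known.

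All 10 records together stood at 7783 counts with NEK6 siRNA and 925 with control siRNA in CFPAC, 7.75-fold (7.24 to 8.30) higher, and at 13296 against 1430 counts in KP3, 9.97-fold (9.44 to 10.5) higher. On the log2(CPM + 0.5) scale, which understates the change of low records, single differences between NEK6 and control siRNA ran from 1.37 (RN7SL3) to 3.02 (RN7SK) for CFPAC and between 2.00 (RNA5-8SN1) and 3.98 (RN7SL3) for KP3. All 10 were at least 2-fold higher with NEK6 siRNA in both lines, where 52 of the 14582 tested genes (0.357%) were, and 9 of the 10 were at least 4-fold higher in both, where 18 genes were. Ranked by the smaller of their differences in CFPAC and KP3, the 10 held places 3 to 34 among all tested genes, RN7SK at 3, RNA5-8SN3 at 5, RN7SL2 at 6 and RN7SL3 at 34. The contrast chose the records, so these counts and places describe the choice. RN7SL3 was the record nearest the 2-fold limit, and RN7SL4P (differences of 1.69 and 2.35) lay beyond the limit without being among the 10.

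**Figure D2:**
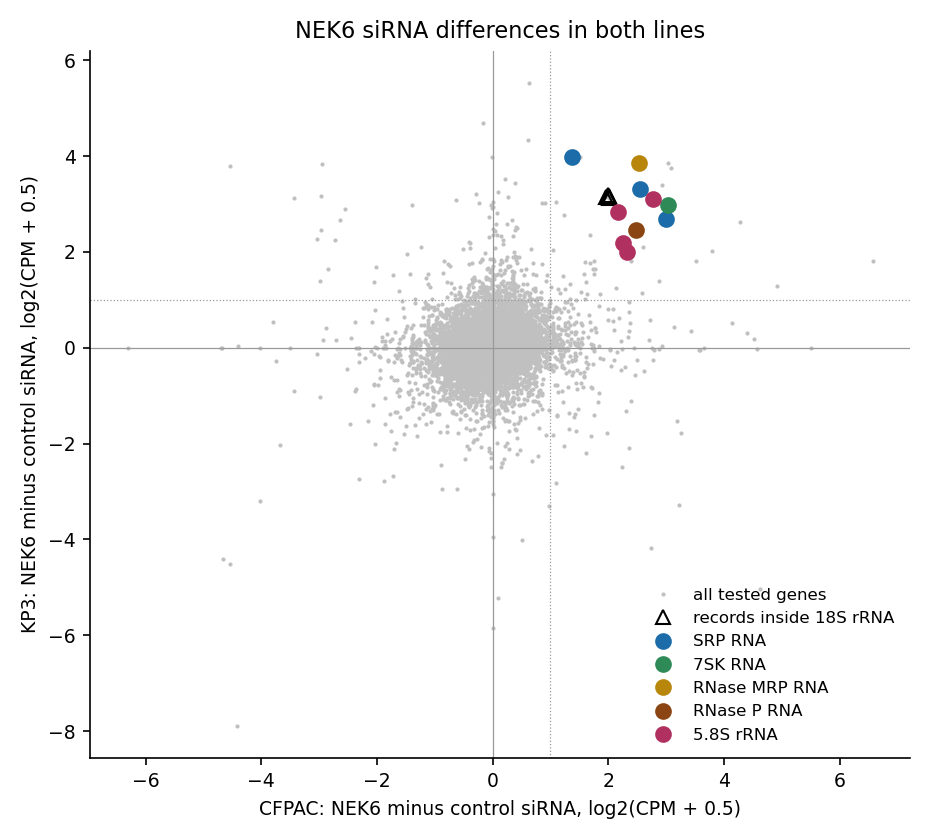
Difference between NEK6 and control siRNA on log2(CPM + 0.5) for every tested gene, CFPAC on the x axis and KP3 on the y axis, with dotted lines at a 2-fold increase. The 10 records (coloured by RNA) sit in the upper right at 1.37 or more in CFPAC and 2.00 or more in KP3, and the open triangles are 4 records that lie inside 18S rRNA.

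With NEK7 siRNA the same records were closer to control. Both siRNAs are set against the same control library in each line, so the differences are given side by side and not compared further. The 10 records together had 1803 counts with NEK7 siRNA and 925 with control siRNA in CFPAC, 1.75-fold (1.62 to 1.896) higher, and 2708 against 1430 counts in KP3, 1.82-fold (1.71 to 1.94) higher. On log2(CPM + 0.5), 0 of the 10 were at least 2-fold higher with NEK7 siRNA in both lines, where 38 tested genes (0.261%) were, while 0 were at least 2-fold lower in both, where 43 genes (0.295%) were. With a pseudocount of 0.1 the number 2-fold higher in both lines was 2, RMRP and RPPH1, both with few control counts. As plain folds of scaled counts, RPPH1 was at 2.84-fold the control level in CFPAC and 4.56-fold in KP3, and RMRP at 5.52-fold in KP3 and, against the floor of 3 counts, at least 10.8-fold in CFPAC. RN7SL1 was at 1.93-fold and 1.79-fold and RN7SL2 at 2.11-fold and 1.52-fold in CFPAC and KP3. SRP RNA summed to 1.93-fold (1.76 to 2.12) the control level in CFPAC and 1.63-fold (1.52 to 1.75) in KP3.

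The ribonuclease RNAs were also above control with NEK7 siRNA, on few counts. RMRP and RPPH1 together were 3.88-fold (2.63 to 5.74) higher in CFPAC, at 134 against 31 counts, and 5.04-fold (2.37 to 10.7) higher in KP3, at 42 against 8 counts. RN7SK was at 1.26-fold (0.947 to 1.66) the control level in CFPAC, an interval that includes no change, and at 4.84-fold (3.10 to 7.58) in KP3. Summed 5.8S rRNA was at 0.853-fold (0.683 to 1.07) the control level in CFPAC and 2.89-fold (2.37 to 3.52) in KP3. On log2(CPM + 0.5) the 5.8S records differed from control by -0.22 to -0.04 with NEK7 siRNA in CFPAC, and the range in KP3 was 0.74 to 1.24.

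**Figure D3:**
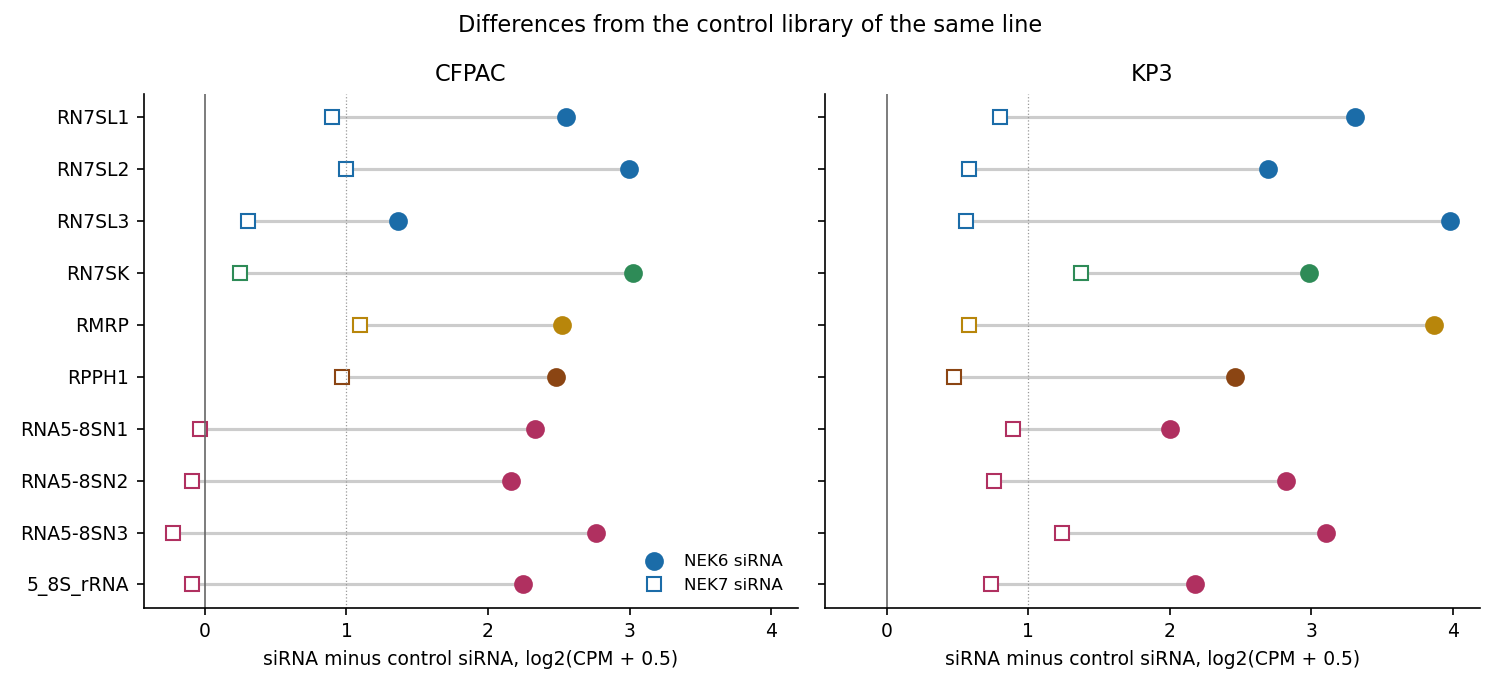
Difference of each record from the control siRNA library of its line on log2(CPM + 0.5), filled circles for NEK6 siRNA and open squares for NEK7 siRNA, CFPAC on the left and KP3 on the right. The dotted line marks a 2-fold increase, which all 10 circles pass in both panels.

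Other records of ribosomal DNA were then looked at, after their values had been seen. On the minus strand of chromosome 21, 4 records annotated as long noncoding RNAs (2 named FP236383 and 2 named FP671120, 923 bases each) lie wholly inside the genes RNA18SN1, RNA18SN2, RNA18SN3 and RNA18SP5 of the RefSeq annotation, in the same stretch as the 5.8S records, which are on the plus strand. No source used here states whether counting used strand, so reads of 18S rRNA and of an antisense RNA cannot be told apart. Summed, they had 139572 counts with NEK6 siRNA, 48023 with NEK7 siRNA and 32361 with control siRNA in CFPAC, and 316667, 83859 and 37702 counts in that order in KP3. They made up 0.217%, 0.0748% and 0.0544% of the NEK6, NEK7 and control siRNA libraries of CFPAC and 0.523%, 0.127% and 0.0586% of those of KP3, many times the share of the 10 records. The sum was 3.97-fold (3.93 to 4.02) the control level with NEK6 siRNA in CFPAC and 9.004-fold (8.91 to 9.10) in KP3. With NEK7 siRNA it was at 1.33-fold (1.31 to 1.35) in CFPAC and 2.14-fold (2.11 to 2.16) in KP3.

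The ratio of these 18S-region counts to 5.8S counts was not the same in all libraries. It was 92.8 with NEK6 siRNA, 318 with NEK7 siRNA and 204 with control siRNA in CFPAC, and 216, 213 and 288 in that order in KP3. MIR3648-1 and another record named FP671120 lie in the transcribed spacer of the same unit, which is cut away when the precursor matures. They summed to 108 counts with NEK6 siRNA, 49 with NEK7 siRNA and 39 with control siRNA in CFPAC and to 606, 26 and 51 counts in that order in KP3. Spacer counts were thus above control with NEK6 siRNA in both lines, 2.55-fold (1.77 to 3.68) in CFPAC and 12.7-fold (9.57 to 17.0) in KP3, and below control with NEK7 siRNA in KP3 at 0.490-fold (0.305 to 0.785).

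Pseudogenes and copies of 7SL and 7SK RNA were compared with the 10 by sequence and by value. Among 20 tested records of this kind, RN7SL4P alone was at least 2-fold higher on log2(CPM + 0.5) with NEK6 siRNA in both lines. It had 181 counts with NEK6 siRNA, 48 with NEK7 siRNA and 32 with control siRNA in CFPAC, and 395, 49 and 57 counts in that order in KP3. RN7SL4P was also the only one of the 20 whose shared run with a record of the 10 was over 50 bases. The other 14 tested 7SL records shared runs of at most 43 bases and the 5 tested 7SK records runs of at most 44 bases. Of these 19, 0 passed 2-fold with NEK6 siRNA in both lines on log2(CPM + 0.5), which understates the change of low records. Over all tested genes 0.357% passed, so a count of 0 says little of the 19. Among the 19, RN7SKP173 had 38 counts with NEK6 siRNA and 6 with control siRNA in CFPAC and 27 against 14 counts in KP3. Its differences on that scale were 0.88 and 0.40. The part of shared reads in the counts of RN7SL4P was not tested. RPS29, a ribosomal protein gene that overlaps RN7SL1 on the opposite strand, differed by -0.40 in CFPAC and -0.20 in KP3 on log2(CPM + 0.5) with NEK6 siRNA, and PARP2, which lies 175 bases from RPPH1, by 0.00 and -0.52.

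The protein partners of these RNAs and the machinery that makes, trims or tails them were examined as 8 lists. Of their 107 tested genes, 0 were 2-fold or more higher or lower with NEK6 siRNA in both lines. Over all tested genes 0.357% were higher and 0.329% lower, so a count of 0 says little of these lists. edgeR called 0 of them for either siRNA at an adjusted p under 0.05, as it called 0 of all 14582 genes (0%) for NEK6 siRNA and 0 (0%) for NEK7 siRNA, and 1073 and 1372 genes had an unadjusted p under 0.05. No siRNA contrast gave a call in limma on log2(FPKM + 1) either, at 0 genes each, while DESeq2 called 288 for NEK6 siRNA (138 higher, 150 lower) and 371 for NEK7 siRNA (195 higher, 176 lower).

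For the 8 SRP proteins and SRP receptor subunits the median difference with NEK6 siRNA was -0.11 in CFPAC and -0.19 in KP3, against 0.00 and 0.00 over all tested genes. SRPRA, the receptor subunit that docks the particle at the endoplasmic reticulum, had 12495 counts with NEK6 siRNA and 15325 with control siRNA in CFPAC and 13790 against 21773 counts in KP3. It was the only gene of the 8 lists that DESeq2 called for NEK6 siRNA (adjusted p = 0.0487), and edgeR's adjusted p was 0.577. SRP68, an SRP protein, differed by 0.07 and 0.40 in CFPAC and KP3.

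For the 7 genes of the 7SK particle and P-TEFb the medians with NEK6 siRNA were -0.07 in CFPAC and 0.08 in KP3. MEPCE, which caps the 5′ end of 7SK RNA, had 3649 counts with NEK6 siRNA and 3871 with control siRNA in CFPAC and 859 against 1992 counts in KP3, differences of -0.20 and -1.09. For 10 tested proteins of ribonucleases P and MRP the medians were -0.03 and -0.16, with RPP40 at 0.22 and 0.94 and RPP21 at -0.63 and -0.35. The gap between the lines was larger than the common direction for MEPCE and RPP40.

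RNA polymerase III itself showed medians of -0.05 in CFPAC and -0.05 in KP3 over 13 subunits with NEK6 siRNA, and its 20 factors 0.05 and -0.06. BDP1, a subunit of the initiation factor TFIIIB, differed by 0.39 and 0.25 with NEK6 siRNA and by 0.56 and 0.39 with NEK7 siRNA, where DESeq2 called it (adjusted p = 0.0173). POLR3F, a polymerase subunit, differed by -0.35 and -0.56 with NEK6 siRNA. RNA polymerase I subunits and factors had medians of 0.05 and -0.06, with POLR1A, the largest subunit, at 0.25 and 0.23 and ZNRD1 at -0.42 and -0.50. Of this list, 2 genes were higher in both lines by any amount and 3 were lower in both.

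The list of 23 genes for precursor rRNA processing and the exosome, the complex that degrades RNA from the 3′ end, had medians of -0.05 in CFPAC and -0.21 in KP3 with NEK6 siRNA. Its genes EXOSC1 (-0.50 and -0.62) and EXOSC3 (-0.88 and -0.26) were lower in both lines without passing edgeR's threshold. With NEK7 siRNA, EXOSC3 had 820 counts against 1404 with control siRNA in CFPAC and 593 against 1160 in KP3, which DESeq2 called (adjusted p = 0.0460). The 13 genes of poly(A) addition and tailing had medians of 0.04 and -0.03, and PAPOLG, a poly(A) polymerase, was at 0.46 and 0.08. Tail lengths were not measured.

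**Figure D4:**
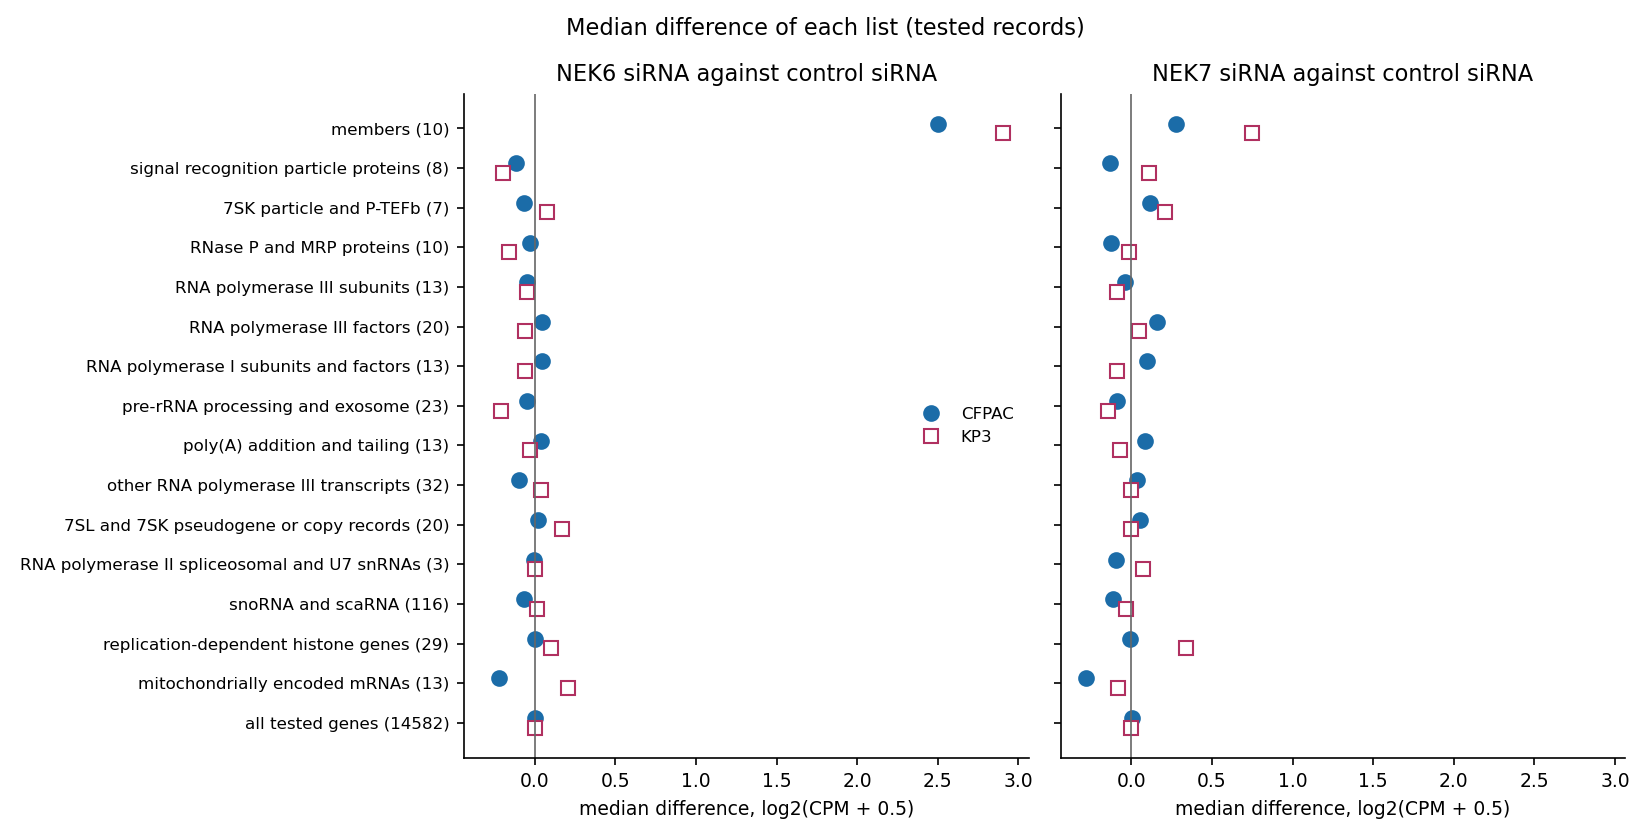
Median difference from control siRNA on log2(CPM + 0.5) of each list, with its number of tested records in brackets, for NEK6 siRNA (left) and NEK7 siRNA (right). Filled circles are CFPAC and open squares KP3, and the 10 records stand at 2.50 and 2.90 with NEK6 siRNA while the other lists shown lie between -0.22 and 0.21 with NEK6 siRNA. The scale understates the change of low records, which the lists of small RNAs and copies hold in number.

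Other RNAs that lack a long poly(A) tail were also looked at as groups, with no test between groups. Of 116 tested snoRNA and scaRNA records, which guide chemical modification of rRNA and snRNA, 0 were 2-fold higher with NEK6 siRNA in both lines, where 0.357% of all tested genes were, so that a count of 0 says little of the list. Over all 316 records of this kind, tested or not, counts summed to 2877 with NEK6 siRNA and 3213 with control siRNA in CFPAC, 0.825-fold. In KP3 they summed to 3994 against 3641, 1.18-fold. SNORD3A, the U3 RNA of precursor rRNA cleavage, had the largest mean difference of the list over both lines, with 97 counts with NEK6 siRNA, 28 with NEK7 siRNA and 34 with control siRNA in CFPAC and 99, 104 and 20 counts in that order in KP3. On log2(CPM + 0.5) SNORD3A differed by 0.92 in CFPAC and 1.40 in KP3 with NEK6 siRNA. The snoRNAs that lie in introns can also be counted from reads of their host genes.

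Of 32 tested records of other RNA polymerase III transcripts, among them Y RNA, U6 and BCYRN1 records, 0 were 2-fold higher with NEK6 siRNA in both lines, which says as little against the background of 0.357%. All 190 records of this list, tested or not, summed to 363 counts with NEK6 siRNA and 446 with control siRNA in CFPAC, 0.750-fold. In KP3 they summed to 468 against 360 counts, 1.39-fold. BCYRN1, a neuronal RNA with an internal A-rich stretch, had 3 counts with NEK6 siRNA, 11 with NEK7 siRNA and 20 with control siRNA in CFPAC and 22, 1 and 30 counts in that order in KP3. Replication-dependent histone genes, whose messages end in a stem-loop, summed to 1.01-fold in CFPAC and 1.001-fold in KP3. That sum covers all 60 records of the list, of which 29 were tested. The spliceosomal and U7 snRNA list had 3 tested records. All its 27 records, tested or not, summed to at most 90 counts a library, too few to compare.

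Long nuclear and mitochondrial RNAs also differed between libraries. MALAT1, a nuclear long noncoding RNA, had 149465 counts with NEK6 siRNA, 82028 with NEK7 siRNA and 21249 with control siRNA in KP3, but 44558, 43900 and 41199 counts in that order in CFPAC. NEAT1, another nuclear RNA, had 11136, 7250 and 12620 counts in KP3 and 4952, 4071 and 4301 counts in CFPAC with NEK6, NEK7 and control siRNA. Mitochondrially encoded mRNAs had median differences with NEK6 siRNA of -0.22 in CFPAC and 0.21 in KP3. The part of these shifts in the values of the 10 records was not tested. In CFPAC the sum of the 10 was 7.75-fold higher with NEK6 than with control siRNA, and MALAT1 stood at 44558 against 41199 counts. In KP3 the sum was 9.97-fold higher, and MALAT1 stood at 149465 against 21249 counts. Whether MALAT1 and the 10 records are linked was not tested.

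The difference between the lines was not used to pick the records, so it was tested, with the 3 siRNA conditions of each line serving as repeats. edgeR's quasi-likelihood test with line and siRNA as factors called 2 of the 10 at a Benjamini-Hochberg adjusted p under 0.05 over all tested genes, where it called 8223 of 14582 genes (56.4%). The share among the 10 is below that background, but copies that share reads are not separate observations. With such copies summed before the fit, 2 of 5 were called, SRP RNA and RPPH1, where 8225 of 14577 genes were. With so few units, the share cannot be set apart from the background. The p-values measure the line difference against the spread left after the siRNA conditions are fitted, which includes any difference in siRNA response between the lines. An exact permutation test of 3 against 3 libraries cannot give a p below 0.1 and was not used.

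RN7SL2 was lower in CFPAC than in KP3, with a log2 fold change of -1.11 (SE 0.15, edgeR adjusted p = 0.00314). On log2(CPM + 0.5) the difference was -0.999 with NEK6 siRNA, -0.89 with NEK7 siRNA and -1.30 with control siRNA, so RN7SL2 was lower in CFPAC in 3 of 3 conditions. RN7SL1 and RN7SL3 pointed the same way with log2 fold changes of -0.51 (SE 0.21, edgeR adjusted p = 0.0907) and -1.06 (SE 0.63, edgeR adjusted p = 0.210). With the SRP copies summed before the fit, SRP RNA was lower in CFPAC by a log2 fold change of -0.83 (SE 0.16, edgeR adjusted p = 0.00893). Without siRNA as a factor the adjusted p of RN7SL2 was 0.387.

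RPPH1 was higher in CFPAC, with a log2 fold change of 2.09 (SE 0.56, edgeR adjusted p = 0.0275) and higher values in 3 of 3 conditions. Its differences on log2(CPM + 0.5), which understates the change of low records, were 0.91 with NEK6 siRNA, 1.39 with NEK7 siRNA and 0.89 with control siRNA. Without the 0.5, levels in CFPAC and KP3 were 5.31 and 2.58 CPM with NEK6 siRNA and 1.54 and 0.280 with NEK7 siRNA. With control siRNA they were 0.543 and 0.0614, so the gap was uneven across conditions. The call rests partly on low KP3 counts, at 157, 19 and 4 with NEK6, NEK7 and control siRNA. This call was lost without CFPAC control (adjusted p = 0.0812), without KP3 control (0.0798), without CFPAC NEK7 siRNA (0.113), without KP3 NEK7 siRNA (0.108), without the filter on FPKM (0.0587) and without siRNA as a factor (0.409).

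RN7SK was higher in CFPAC in 3 of 3 conditions, with a log2 fold change of 1.12 (SE 0.44) that missed edgeR's threshold at an adjusted p of 0.0847. It passed in DESeq2 (adjusted p = 0.0414), in limma on log2(FPKM + 1) (0.0394), without CFPAC NEK7 siRNA (0.0317) and without KP3 NEK7 siRNA (0.0335). RMRP had a log2 fold change of -0.92 (SE 0.86, edgeR adjusted p = 0.401). The 4 records of 5.8S rRNA had log2 fold changes of -0.38 to -0.08 with adjusted p from 0.454 to 0.920, and their sum one of -0.26 (SE 0.38, edgeR adjusted p = 0.580). A p above the threshold does not show that the lines were alike.

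The records inside 18S rRNA leaned the way of SRP RNA between the lines. Their log2 fold changes were -0.70 to -0.62, with edgeR adjusted p from 0.0483 to 0.0718. Of the 4, 1 passed, where 56.4% of all tested genes did. The records in RNA18SN1 and RNA18SN2 hold the same 923 bases as that in RNA18SN3. The record in RNA18SP5 is 99.6% identical to it. They share reads, so they are 1 observation and not 4.

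**Figure D5:**
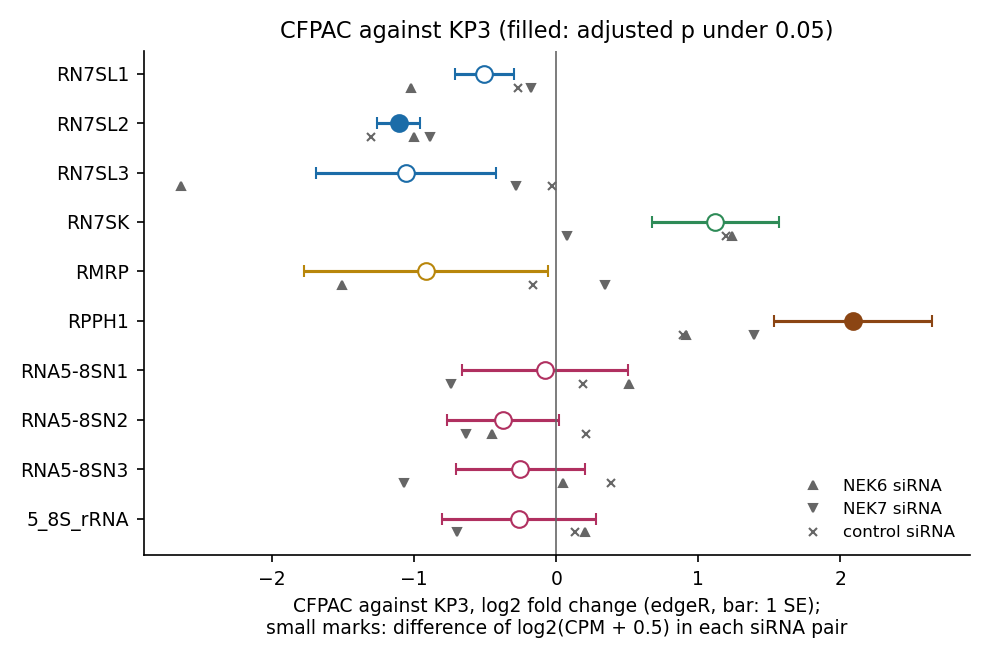
CFPAC against KP3 for each of the 10 records, as edgeR's log2 fold change with 1 standard error, and below it the difference of log2(CPM + 0.5) in each siRNA condition as small marks. RN7SL2 and RPPH1 (filled) passed an adjusted p of 0.05, RN7SL2 lower and RPPH1 higher in CFPAC.

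Genes whose pattern was most like that of the summed 10 records were found with each line's mean taken off log2(CPM + 0.5), over 6 libraries and 11425 genes outside the 10 with a mean CPM of at least 5. With 2 lines and 3 siRNA conditions such a correlation has few free points, and 89 genes had a Pearson r over 0.95. The 10 genes highest in r included SMG1P3, PAFAH1B2, RNF135, SPAG1, SOD2, ZNF91, RGPD6, DDI2 and CLIP1, and the 10 ran from 0.998 for SMG1P3 to 0.993 for CLIP1. Their own differences were small beside those of the 10 records. SMG1P3, a pseudogene of the kinase gene SMG1, had 645 counts with NEK6 siRNA, 421 with NEK7 siRNA and 332 with control siRNA in CFPAC and 582, 414 and 342 counts in that order in KP3. SOD2, the mitochondrial superoxide dismutase, had 15659, 11587 and 9756 counts in CFPAC and 9993, 8212 and 6669 counts in KP3 in that order. These 10 genes were 1.20-fold to 1.73-fold higher with NEK6 siRNA than with control siRNA in CFPAC and 1.24-fold to 1.75-fold higher in KP3. The 4 records inside 18S rRNA, near-identical in sequence, had r of 0.985 to 0.988.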

How the data were processed

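RNA sequencing covered CFPAC and KP3 cells given NEK6, NEK7 or control siRNA. Each library stands alone in its group, and where the labels name no separate cultures, p-values measure only the spread between these libraries. The submitters' processing notes name HISAT2 2.0.4, StringTie 1.3.4d, cutadapt 1.9 and edgeR, without saying what each did. The authors deposited whole-number counts per gene and library, not normalized. FPKM values of the same genes, scaled to length and library size, were also deposited by the authors. A genome build was not given in the sources used here. GENCODE v29 holds 32211 of the 33097 record ids, and 32205 of those (99.98%) overlap it on the same chromosome and strand (GRCh38). RefSeq genes (GRCh38.p14) gave names of overlapping rRNA genes only.

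The 10 records and the gene lists were chosen with earlier results of these data known. The rule named the 10 records, NEK6 and NEK7. From each of 16 lists it took at most 2 tested members a direction with the largest mean difference with NEK6 siRNA over both lines, and members of counts of 5 or fewer. It also took the 10 genes most like the summed records. The text names part of these, some genes and sequences are not reported here, and the rDNA records were added after their values were seen.

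Counts were scaled to library size with TMM factors (CPM), and within a line differences of log2(CPM + 0.5) were taken with no test. Intervals of summed folds and shares are 95% and cover counting error only, since no molecular identifiers are known, with a floor of 3 counts per library. edgeR 4.0.16 (R 4.3.3) fitted counts with line and siRNA as factors, TMM factors and its quasi-likelihood F test, leaving 2 residual degrees of freedom. Benjamini-Hochberg adjustment ran over 14582 genes, with a threshold of 0.05. For the siRNA contrasts the line is the block, and for the line contrast the siRNA. DESeq2 1.42.0, limma 3.58.1, other scalings, no filter, filterByExpr, no block, summed copies and each library left out were alternatives. Those on the 4-fold and 1.5-fold limits, and filterByExpr and summed copies for the lists, were chosen after seeing the data. Sequences were aligned with Biopython 1.88, and tables and figures made with Python 3.11.15, numpy 2.4.6, pandas 2.3.3, scipy 1.17.1 and matplotlib 3.10.9.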

Additional observations from a re-analysis of the deposited data

Results flagged for a closer look

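With NEK7 siRNA against control siRNA, the values of the 5.8S rRNA records were slightly below control in CFPAC, by less than their counting error, and above control in KP3. Summed 5.8S rRNA was at 0.853-fold in CFPAC (95% counting interval 0.683 to 1.07) and at 2.89-fold in KP3 (2.37 to 3.52). RNA5-8SN1 was at 0.941-fold in CFPAC and 3.50-fold in KP3, RNA5-8SN2 at 0.898-fold and 2.27-fold, RNA5-8SN3 at 0.801-fold and 3.13-fold, and 5_8S_rRNA at 0.853-fold and 2.88-fold. The difference between the lines was not tested, since each rests on 1 library per siRNA. The 4 records have the same sequence and share reads, so they are 1 observation and not 4.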

How the results depend on the processing

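The summed difference with NEK6 siRNA and the count of 10 records at least 2-fold higher in both lines kept their size under every scaling, pseudocount and unit tried. For NEK7 siRNA, summed FPKM gave a log2 difference of 0.96 in KP3, against 0.86 from counts, and the number of records 2-fold higher in both lines on the log2 scale with its pseudocount was 2 with a pseudocount of 0.1 and 1 at a 1.5-fold limit chosen after seeing the data, against 0. The number of the 10 called between CFPAC and KP3 was 1 without the filter, 0 with no replicate block (siRNA left out as a factor) and 1 to 2 with each library left out, against 2. The libraries whose loss took RPPH1 out of the calls were both control and both NEK7 siRNA libraries, RN7SK gained a call without either NEK7 siRNA library, and RN7SL2 kept its call in every such fit (adjusted p 0.0106 to 0.0206). Genes called between the lines came to 6422 to 6529 with a library left out, against 8223. Among list members DESeq2 called 2 with NEK6 siRNA (SRPRA and RN7SL4P) and 3 with NEK7 siRNA (BDP1, EXOSC3 and H4C15), where edgeR called 0. The 5.8S records RNA5-8SN1, RNA5-8SN3 and 5_8S_rRNA changed direction between the lines, without passing in any fit. RNA5-8SN1 stood at 0.30 and 5_8S_rRNA at 0.038 with no replicate block, and with a library left out RNA5-8SN1 ran from -0.49 to 0.55, RNA5-8SN3 from -0.65 to 0.30 and 5_8S_rRNA from -0.56 to 0.28. The cause of these changes was not tested. Labels number no replicates, so pairing rests on the shared siRNA alone. Depth limits RMRP and RPPH1 most, at 0 to 31 counts in the control libraries.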

Other observations

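RN7SL657P, a 7SL pseudogene record, was low with NEK7 siRNA. It had 3 counts with NEK7 siRNA against 64 with control siRNA in CFPAC and 5 against 76 counts in KP3, differences of -1.57 and -1.54 on log2(CPM + 0.5). On that scale it was the only 1 of 20 copy records at least 2-fold lower in both lines, where 0.295% of all tested genes were. With NEK6 siRNA it had 4 counts in CFPAC and 97 in KP3. Of the histone genes, H4C15, which encodes histone H4, had 287 counts with NEK7 siRNA and 136 with control siRNA in CFPAC and 864 against 401 counts in KP3, which DESeq2 called (adjusted p = 0.0380) and edgeR did not. FP671120, a long noncoding RNA record that holds RNA5-8SN2, had 237 counts with NEK6 siRNA and 228 with control siRNA in CFPAC and 402 against 37 counts in KP3, while FP236383, the record that holds RNA5-8SN1 and RNA5-8SN3, had 664 against 674 counts in CFPAC and 352 against 457 counts in KP3.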
